A study of Mus musculus with 2 samples.

Results

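The genes of 5 basic helix-loop-helix (bHLH) factors and of their bridging partner, 6 in all, were examined for open chromatin in mouse GMP (granulocyte monocyte progenitors), marrow precursors of neutrophils and monocytes. They are the E protein genes Tcf3, Tcf4 and Tcf12, and the blood cell genes Tal1, Lyl1 and Lmo2. Members were chosen by name, with earlier results of these data known. A region of open chromatin was taken as theirs when its summit, the position of highest signal, lay in the gene body or within 80 kb on either side. This gave 115 regions at the 6 genes, of 75148 regions in the series-level list and of 21670 protein-coding genes.

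E proteins bind the E-box, a short DNA sequence written CANNTG, as pairs with themselves or with tissue-specific bHLH partners. Tal1 and Lyl1 are such partners and act in blood stem cells and progenitors. Lmo2 does not touch DNA itself. It joins E protein and Tal1 or Lyl1 pairs to GATA factors, and it binds the adaptor Ldb1. Id proteins hold E proteins in pairs that cannot bind DNA.

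ATAC-seq, in which the Tn5 transposase cuts open DNA and tags it for sequencing, had been run on primary GMP of male adult C57BL/6J mice of 5 to 6 weeks, with 50000 cells per library. The series holds 1 group with 2 biological replicates, which carry the same donor label, and no treatment or mutant. Each region carries the authors' fold enrichment, called fold here. The cell sort and the denominator of the fold were not given in the sources used here. No read counts were given, so depth is unknown, and a region missing from a list is one that did not pass its threshold. In bulk cells, a region open in few cells and one weakly open in all of them cannot be told apart.

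Promoters of GMP and myeloid marker genes were open in 15 of 16 cases, Prtn3 being the exception. The marker lists too were chosen with earlier results known. A promoter was called open when a summit lay within 1000 bp of a transcription start site (TSS) of a coding transcript, which held for 61.4% of protein-coding genes. Of markers of other cells, the promoters of 3 of 5 erythroid genes (Gata1, Epor and Hbb-bs), 2 of 3 megakaryocyte genes, 1 of 3 mast cell and basophil genes and 2 of 4 B cell genes (Pax5 and Ebf1) were open. In the series-level list 0 of 4 T cell genes had an open promoter, and neither had Alb (hepatocytes) or Myod1 (muscle). Of the T cell genes, Tcf7 had one in the list of replicate 1 (fold 6.70). By fold, the GMP and myeloid promoters did not stand above the open ones of other cells. Ms4a3 (13.9) was the highest of the former, followed by Irf8 (9.77). Of the latter, Hbb-bs had 16.9, Pax5 12.8, Mcpt8 12.2, Epor 11.9 and Ebf1 11.7. Gata1 had 9.99, Pf4 6.41 and Itga2b 4.55. The part of such other cells in the regions described here was not tested.

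The sequences under 14 summits are given first, those of the open promoters, of the strongest member and of named element positions. Sequence of Tcf4 is not shown. Each holds 121 bases centred on the summit, 5′ to 3′ along the gene, in mm10. Capitals mark E-boxes (CANNTG), the core GATA of GATA factor sites and the core GGAA of ETS factor sites, searched on both strands, so that TATC and TTCC are also in capitals.
Tcf3 promoter, chr10:80433981-80434101, minus strand: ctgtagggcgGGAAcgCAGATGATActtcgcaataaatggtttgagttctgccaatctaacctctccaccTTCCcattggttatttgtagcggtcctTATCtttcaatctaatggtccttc
Tcf12 first promoter, chr9:72111860-72111980, minus strand: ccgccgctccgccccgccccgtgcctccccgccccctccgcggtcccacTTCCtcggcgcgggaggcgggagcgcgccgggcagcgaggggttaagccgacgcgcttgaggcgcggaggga
Tcf12 internal promoter, chr9:71896497-71896617, minus strand: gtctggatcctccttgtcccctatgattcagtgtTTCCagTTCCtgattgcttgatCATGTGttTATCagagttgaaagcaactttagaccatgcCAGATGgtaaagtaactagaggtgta
Tcf12 intron, the region with the highest fold of the 115, chr9:72089006-72089126, minus strand: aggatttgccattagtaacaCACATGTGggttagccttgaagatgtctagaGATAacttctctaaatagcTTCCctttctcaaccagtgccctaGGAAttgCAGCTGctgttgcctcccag
Tal1 promoter, chr4:115056944-115057064, plus strand: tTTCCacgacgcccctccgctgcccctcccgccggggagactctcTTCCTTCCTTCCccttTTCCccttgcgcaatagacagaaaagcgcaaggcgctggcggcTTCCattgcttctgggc
Tal1 upstream region, chr4:115052711-115052831, plus strand: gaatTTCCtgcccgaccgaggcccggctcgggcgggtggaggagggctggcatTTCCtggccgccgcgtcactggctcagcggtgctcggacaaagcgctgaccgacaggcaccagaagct
Tal1 stem cell enhancer position, chr4:115075667-115075787, plus strand: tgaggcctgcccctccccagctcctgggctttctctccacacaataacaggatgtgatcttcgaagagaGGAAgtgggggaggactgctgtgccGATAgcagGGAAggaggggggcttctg
Tal1 erythroid enhancer position, chr4:115096039-115096159, plus strand: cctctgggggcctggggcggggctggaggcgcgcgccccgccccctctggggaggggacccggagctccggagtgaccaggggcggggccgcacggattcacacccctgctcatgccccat
Lyl1 promoter, chr8:84701354-84701474, plus strand: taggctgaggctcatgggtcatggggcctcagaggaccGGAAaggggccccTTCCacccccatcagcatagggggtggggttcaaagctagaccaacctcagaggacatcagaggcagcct
Lmo2 first promoter, chr2:103958283-103958403, plus strand: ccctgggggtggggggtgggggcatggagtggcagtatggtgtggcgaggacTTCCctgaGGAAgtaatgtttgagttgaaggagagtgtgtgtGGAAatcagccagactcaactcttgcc
Lmo2 second promoter, chr2:103969503-103969623, plus strand: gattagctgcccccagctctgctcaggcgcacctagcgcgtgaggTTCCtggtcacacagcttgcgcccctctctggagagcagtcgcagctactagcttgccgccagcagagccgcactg
Lmo2 far upstream region, chr2:103881225-103881345, plus strand: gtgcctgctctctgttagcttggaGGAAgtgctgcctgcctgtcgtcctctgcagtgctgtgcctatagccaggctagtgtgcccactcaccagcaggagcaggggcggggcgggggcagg
Lmo2 upstream region at -23.5 kb, chr2:103934422-103934542, plus strand: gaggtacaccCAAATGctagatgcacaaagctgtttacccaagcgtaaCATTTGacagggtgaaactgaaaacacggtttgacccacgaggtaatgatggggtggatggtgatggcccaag
Lmo2 upstream region nearest the -12 kb position, chr2:103945921-103946041, plus strand: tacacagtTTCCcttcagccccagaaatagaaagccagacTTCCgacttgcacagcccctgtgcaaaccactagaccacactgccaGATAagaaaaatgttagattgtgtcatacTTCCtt

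E-boxes stood in 4 of these 14 windows, 1 at Tcf3, 2 at Tcf12 and 1 at Lmo2. The Tcf3 promoter had 1 E-box (CAGATG), which shares its last base with a GATA core. The internal promoter of Tcf12 had 2, and the Tcf12 intron had 3, of which 2 overlap as CACATGTG and 1 is CAGCTG. At Lmo2 the region at -23.5 kb had 2, and no E-box stood within 60 bases of the summits shown for Tal1 and Lyl1. Within 150 bp, the Tal1 erythroid enhancer position did hold an E-box (CAGCTG) and GATAA, outside the bases printed. The other summits shown for Tal1 and Lyl1 had no E-box within 150 bp either. GAGGAAGT, a consensus of the myeloid factor PU.1, stood in 4 windows, at the first promoter of Tcf12, the Tal1 stem cell enhancer position, the first promoter of Lmo2 and the far upstream region of Lmo2. A GGAA core stood in 12 of the 14, with 6 at the Tal1 promoter and none at the Tal1 erythroid enhancer position. Shares over all regions are not given for windows of this length, so no excess or lack can be read from these counts. Shares within 150 bp of the summit, for all members and all regions, are given further below.

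All 6 genes had an open promoter, in the series-level list and in the list of each replicate, while 61.4% of protein-coding genes had one in the series-level list and 56.1% in both replicates. The strongest promoter region of each E protein gene had a fold of 12.0 at Tcf12, 11.5 at Tcf4 and 10.9 at Tcf3. Those of the blood cell genes had 8.70 at Lmo2, 7.32 at Tal1 and 4.97 at Lyl1. The median of all 75148 regions was 8.09, so Tal1 and Lyl1 lay below it and the other 4 above.

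In replicate 1 the strongest promoter regions had folds of 12.2 at Tcf12, 12.0 at Tcf4, 11.4 at Tcf3, 9.43 at Lmo2, 7.86 at Tal1 and 5.15 at Lyl1. In replicate 2 they had 10.1 at Tcf12, 9.95 at Tcf4, 9.38 at Tcf3, 7.34 at Lmo2, 6.45 at Tal1 and 4.70 at Lyl1. The order was the same in both lists, and each gene was higher in replicate 1, as most regions were. The folds of the 2 replicates were also pooled, without allowing for the higher level of replicate 1. So pooled, the values of the 3 E protein genes overlapped, as did those of Lmo2 with Tcf3 and of Tal1 with Lmo2. Those of Lyl1 overlapped with no other of the 6. With 2 replicates the order was not tested.

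**Figure D1:**
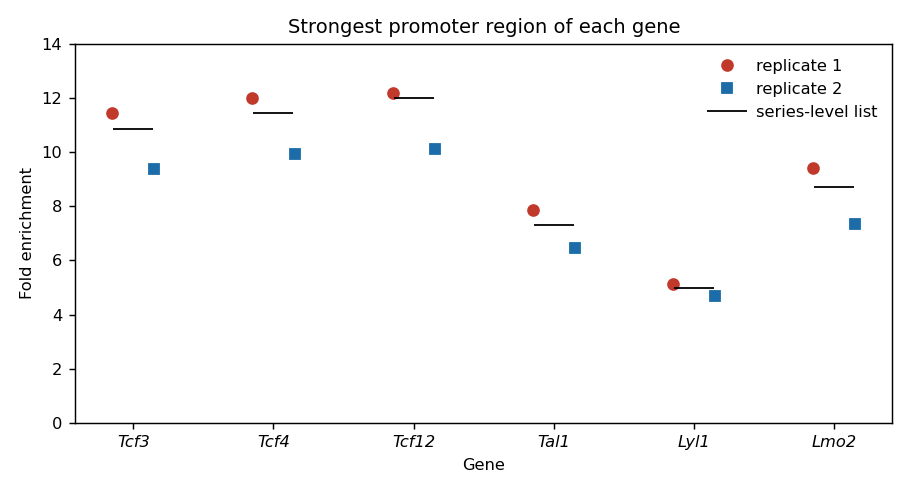
Fold enrichment of the strongest promoter region (y axis, authors' value) of each gene (x axis), with circles for replicate 1, squares for replicate 2 and lines for the series-level list. Folds at Tcf3, Tcf4 and Tcf12 lie between 9.38 and 12.2, and those of Lyl1 between 4.70 and 5.15. For Tcf12 the strongest region is the internal promoter in replicate 1 and the first promoter in replicate 2.

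Tcf3 encodes an E protein needed for B cell development and is active in many tissues. Its coding transcripts start at 3 groups of TSSs (neighbouring sites no more than 1000 bp apart), of which 1, at the 5′ end, was open. The promoter region at chr10:80433472-80434498, 1027 bp wide, had its summit at -394 bp and a fold of 10.9 (11.4 in replicate 1 and 9.38 in replicate 2). The longest protein encoded from this group has 653 amino acids. No region had its summit at the start sites at 2.57 to 2.66 kb or at 11.8 kb inside the gene.

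Only 2 of the 17 regions around Tcf3 were nearer to a Tcf3 TSS than to that of another gene, the promoter and an intergenic region at -12.7 kb (fold 6.47, with 7.08 in replicate 1 and 5.11 in replicate 2). The window holds 7 other genes, and 6 of its regions lay at their promoters, among them those of Reep6 (fold 13.2, the highest of the window), Mbd3 and Uqcr11. The gene body itself held no summit. An intergenic region at -41.8 kb, nearest to Onecut3, had a fold of 11.5 and the widest gap between replicates of all members, 15.2 in replicate 1 against 6.97 in replicate 2.

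Tcf4 encodes the E protein that plasmacytoid dendritic cells depend on. It was the only member with no other gene in its window, and all 22 regions were nearest to it. Of its 22 regions 16 were intronic. Its 44 TSSs of coding transcripts fall into 10 groups, of which 3 were open. At the 5′ end the region at 1.06 kb, on chromosome 18 from 69344006 to 69344688, had a fold of 11.5 (12.0 in replicate 1 and 9.95 in replicate 2), and transcripts there encode up to 692 amino acids.

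Inside Tcf4, a region at 72.9 kb had a fold of 8.86 (8.76 in replicate 1 and 7.69 in replicate 2), at a TSS whose transcript encodes 587 amino acids. A second internal group, from 249.6 to 250.8 kb, carried regions at 250.0 kb (fold 8.19, with 8.31 in replicate 1 and 7.52 in replicate 2) and at 249.4 kb (fold 4.81, with 4.69 in replicate 1 and none in the list of replicate 2). Transcripts from it encode up to 511 amino acids. A group of 14 start sites from 2.36 to 5.59 kb, with proteins of up to 670 amino acids, had no region. Neither had the 4 groups between 156.0 kb and 179.1 kb.

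The strongest Tcf4 region was intronic, at 22.2 kb, with a fold of 15.1 (14.6 in replicate 1 and 12.4 in replicate 2), above 95.2% of all regions. The region at 242.8 kb had a fold of 12.2. It was stronger in replicate 2 (12.2) than in replicate 1 (10.7), which held for 6 of the 82 members found in both replicate lists. An intergenic region at -5.23 kb had a fold of 11.1 and was in the list of replicate 1 (12.9) but not of replicate 2, where the authors' looser list held it. It was the strongest member missing from a replicate's list.

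Tcf12 encodes an E protein with a known part in T cell precursors. Of its 4 groups of start sites 2 were open, the first promoter and an internal promoter. The region of the first promoter, chr9:72111383-72112220, had its summit at -49 bp and a fold of 11.7 (11.8 in replicate 1 and 10.1 in replicate 2). Beside it, a region at 709 bp (fold 5.38) was in neither replicate's list, and both looser lists held it. The internal promoter carried a pair of regions, at 215.3 kb (fold 12.0, with 12.2 in replicate 1 and 9.33 in replicate 2) and at 215.7 kb (fold 8.81, with 8.79 in replicate 1 and 7.28 in replicate 2). Transcripts from there encode up to 536 amino acids, against 706 from the first promoter. In the windows printed above, 81.0% of bases were G or C at the first promoter and 42.1% at the internal one.

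The strongest of all 115 members was the intronic Tcf12 region at 22.8 kb, chr9:72088851-72089577, with a fold of 16.3 (16.1 in replicate 1 and 13.7 in replicate 2), above 97.3% of all regions. Its sequence holds the 3 E-boxes named above. The next strongest Tcf12 region was intronic too, at 160.4 kb, with a fold of 12.8 (13.2 in replicate 1 and 10.96 in replicate 2). Upstream of the gene, regions at -21.4 kb (fold 9.44) and -58.2 kb (fold 10.5) were in both replicates. Of the 5 regions nearest to the neighbour Cgnl1, 3 were in neither replicate's list and 1 was only in that of replicate 2.

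**Figure D2:**
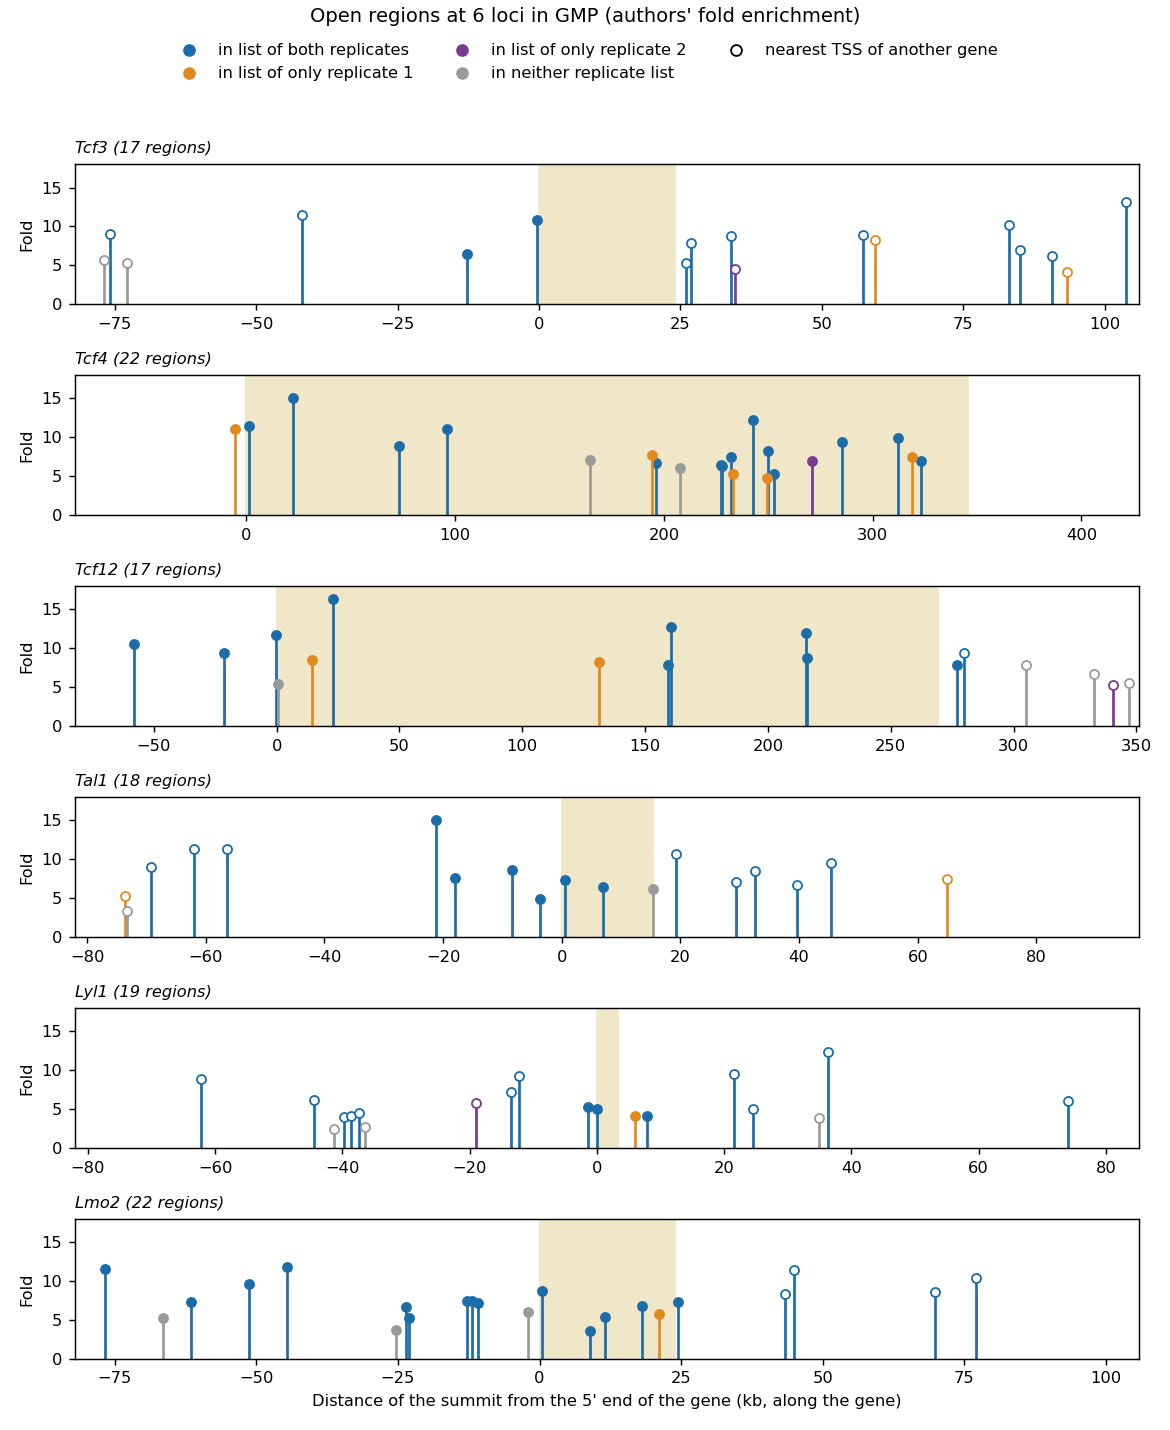
Each stem is a region of the series-level list, at the distance of its summit from the 5′ end of the gene (x axis, kb along the gene, a different scale in each panel) and as high as its fold (y axis); shading marks the gene body. Colours give the replicate lists that hold the region, and open circles mark regions nearest to another gene's TSS. All 22 circles at Tcf4 are filled, against 2 of 17 at Tcf3.

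Tal1 encodes the bHLH partner needed to form blood stem cells. Its promoter region, chr4:115056501-115057877, was 1377 bp wide and covers the start sites at 1.01 to 1.39 kb. The start site at the 5′ end lies outside it and within 1000 bp of its summit. It had a fold of 7.32 (7.86 in replicate 1 and 6.45 in replicate 2). The start site at 3.08 kb had no region. Within the gene body, an exonic region at 6.90 kb had a fold of 6.44 and was in both replicates.

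Positions of mouse Tal1 enhancers named in earlier work, at about -4, +19 and +40 kb, each held a region within 2000 bp. Of protein-coding genes, 17.4%, 17.9% and 17.8% had a region at these distances from their 5′ end. These shares do not allow for density, which was 10.3 regions per 100 kb in the Tal1 window, against a median of 5.35 over genes. The region at the -4 kb position, which is active in blood progenitors and endothelium, lay at -3.66 kb and was weak, with a fold of 4.93 (4.86 in replicate 1 and 4.76 in replicate 2). The stem cell enhancer position held an intergenic region at 19.3 kb, chr4:115075278-115076015, with a fold of 10.6 (11.2 in replicate 1 and 8.94 in replicate 2). The erythroid enhancer position held the widest member, 1449 bp at 39.7 kb, chr4:115095651-115097099, merged from 4 rows, with a fold of 6.65 (7.27 in replicate 1 and 5.67 in replicate 2). In each replicate the stem cell position was above the promoter, and the erythroid position and the -4 kb position below it.

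The highest fold in the Tal1 window was not at a named position. It lay at -21.2 kb, in an intron of the neighbour Stil, chr4:115035063-115035423, with a fold of 15.0 (15.7 in replicate 1 and 12.1 in replicate 2). Next came an intergenic region at -62.0 kb, nearest to Stil, with a fold of 11.3 (12.1 in replicate 1 and 9.27 in replicate 2). Promoters of Stil at -56.4 kb (fold 11.3) and of Cmpk1 at -69.2 kb (fold 9.06), and that of Pdzk1ip1 at 32.5 kb (fold 8.42), were open in both replicates. Of the 18 regions 7 were nearest to Tal1, and those at 19.3 and 39.7 kb were nearer to the TSS of Pdzk1ip1. A region at -73.2 kb (fold 3.34) was the only member absent from the looser lists of both replicates.

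Lyl1 is the closest relative of Tal1. Its gene is 3.26 kb long with 1 start site, inside the annotated body of Nfix on the other strand, and the region there, chr8:84701199-84701897, had its summit at -43 bp and a fold of 4.97 (5.15 in replicate 1 and 4.70 in replicate 2). It was stronger than 12.0% of all regions. A region in an exon at -1.35 kb had a fold of 5.26 (5.12 in replicate 1 and 5.15 in replicate 2), and those at 5.99 kb (fold 4.15) and 7.90 kb (fold 4.14) were the other 2 regions nearest to Lyl1. The one at 5.99 kb was 1380 bp wide, merged from 5 rows, and was not in the list of replicate 2.

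The Lyl1 locus had the lowest median fold of the 6, 5.06, against 7.33 at Lmo2, 7.45 at Tcf4, 7.53 at Tal1, 7.91 at Tcf3 and 8.52 at Tcf12. Its window holds 6 other genes, and 15 of its 19 regions were nearer to one of them. A group of 6 weak regions around Ier2, from -44.5 to -36.4 kb, had folds of 2.47 to 6.20. The strongest region of the window was intronic, at 36.3 kb, with a fold of 12.3 (13.1 in replicate 1 and 10.4 in replicate 2), nearest to G430095P16Rik. The next strongest were the promoters of G430095P16Rik at 21.5 kb (fold 9.53, with 10.9 in replicate 1 and 7.61 in replicate 2) and of Trmt1 at -12.2 kb (fold 9.21, with 9.64 in replicate 1 and 7.53 in replicate 2).

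Lmo2, the bridging protein gene, had both of its groups of start sites open. At the first promoter the region chr2:103958182-103958511 had its summit at 357 bp and a fold of 8.70 (9.43 in replicate 1 and 7.34 in replicate 2). The second, chr2:103969370-103970592, was 1223 bp wide and merged from 4 rows, with a fold of 5.36 (5.93 in replicate 1 and 4.73 in replicate 2). In either replicate the first was the stronger. Transcripts from the first encode up to 158 amino acids and those from the second up to 228.

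Upstream of Lmo2 lay 12 regions, 9 of them in both replicates. Positions of Lmo2 elements named in earlier work, at about -75, -25 and -12 kb, each held a region within 2000 bp when counted from the 5′ end of the gene, and the origin those names were counted from was not checked. Of protein-coding genes, 17.3%, 18.2% and 18.7% had one at these distances. Such shares again leave out density, which was 12.0 regions per 100 kb in the Lmo2 window, against a median of 5.35. The region at -76.7 kb, chr2:103881127-103881614, had a fold of 11.5 (12.4 in replicate 1 and 9.33 in replicate 2). Near -25 kb the regions were weaker, with 6.69 at -23.5 kb, 5.19 at -23.1 kb and 3.72 at -25.3 kb, the last in neither replicate's list. Around -12 kb stood 3 regions of nearly equal fold, 7.39 at -12.9 kb, 7.42 at -12.005 kb and 7.18 at -10.9 kb, all in both replicates.

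The highest fold in the Lmo2 window was 11.8, at -44.5 kb in an intron of the lincRNA gene Gm13881, with 12.8 in replicate 1 and 8.29 in replicate 2. It was followed by the -76.7 kb region and by one at 44.9 kb with a fold of 11.4 (13.6 in replicate 1 and 8.51 in replicate 2), nearest to Fbxo3. Inside the gene, regions at 8.99, 18.1 and 21.2 kb had folds of 3.58, 6.81 and 5.77, and the last was not in the list of replicate 2. Of the 22 regions 18 were nearest to Lmo2.

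Both replicate lists held 82 of the 115 members, or 71.3%, against 66.1% of all regions. Replicate 1 held 95 members (82.6%, against 81.9% of all regions) and replicate 2 held 86 (74.8%, against 69.4%). The share in both was 81.8% at Lmo2 (18 of 22), 77.8% at Tal1 (14 of 18), 73.7% at Lyl1 (14 of 19), 70.6% at Tcf3 (12 of 17), 63.6% at Tcf4 (14 of 22) and 58.8% at Tcf12 (10 of 17). These shares lie on both sides of that of all regions and rest on few regions each. They describe windows and not genes, as 50 of the 115 members were nearer to another gene. At Tcf12, 5 of the 17 were nearest to Cgnl1, of which 3 were in neither list and 1 only in that of replicate 2. Of the 65 members with the member's TSS nearest, 48 were in both lists (73.8%). The difference between loci was not tested.

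Of the other 33 members, 13 were only in the list of replicate 1, 4 only in that of replicate 2 and 16 in neither. The looser lists of both replicates held 30 of the 33. The exceptions were the Tal1 region at -73.2 kb, in neither looser list, and the Tcf12 region at 347.1 kb and the Lmo2 region at -25.3 kb, which the looser list of replicate 2 lacked. Members in both lists had a median fold of 8.37, against 5.62 for the other members. Over all regions these medians were 9.61 and 6.06.

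Around Tcf3, the regions missing from a list were those at 93.4 kb (fold 4.08) and 59.4 kb (8.21), only in replicate 1, that at 34.7 kb (4.52), only in replicate 2, and those at -72.7 kb (5.34) and -76.8 kb (5.62), in neither. At Tcf4, beside those at -5.23 and 249.4 kb, the regions at 194.2 kb (fold 7.78), 233.3 kb (5.28) and 319.0 kb (7.47) were only in replicate 1, that at 271.2 kb (6.93) only in replicate 2, and those at 164.6 kb (7.08) and 207.7 kb (6.07) in neither. Around Tcf12, the regions at 131.1 kb (fold 8.24) and 14.6 kb (8.52) were only in replicate 1, that at 340.5 kb (5.29), the promoter of Cgnl1, only in replicate 2, and those at 347.1 kb (5.49), 332.5 kb (6.65), 305.3 kb (7.80) and 709 bp (5.38) in neither. All of these had a fold under 10 except the Tcf4 region at -5.23 kb.

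Around Tal1, the regions at -73.6 kb (fold 5.33) and 64.9 kb (7.45) were only in replicate 1, and those at -73.2 kb (3.34) and 15.4 kb (6.22) in neither. Around Lyl1, the region at 5.99 kb (fold 4.15) was only in replicate 1, that at -19.0 kb (5.79) only in replicate 2, and those at -41.4 kb (2.47), -36.4 kb (2.73) and 34.8 kb (3.86) in neither. At Lmo2, the region at 21.2 kb (fold 5.77) was only in replicate 1, and those at -66.4 kb (5.29), -25.3 kb (3.72) and -2.11 kb (6.01) in neither.

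Presence in both replicates went with fold. Of 23 members with a fold of at least 10, 22 were in both lists (95.7%, against 97.1% of all such regions). From 7 to 10 it was 34 of 42 (81.0%, against 71.3%), from 5 to 7 it was 19 of 34 (55.9%, against 41.6%), and below 5 it was 7 of 16 (43.75%, against 23.1%). Most members below 5 in both lists lay in the Lyl1 window, at -39.8, -38.7 and -37.3 kb (nearest to Ier2), at the Lyl1 promoter and at 7.90 kb. The others were the Tal1 region at -3.66 kb and the Lmo2 region at 8.99 kb.

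**Figure D3:**
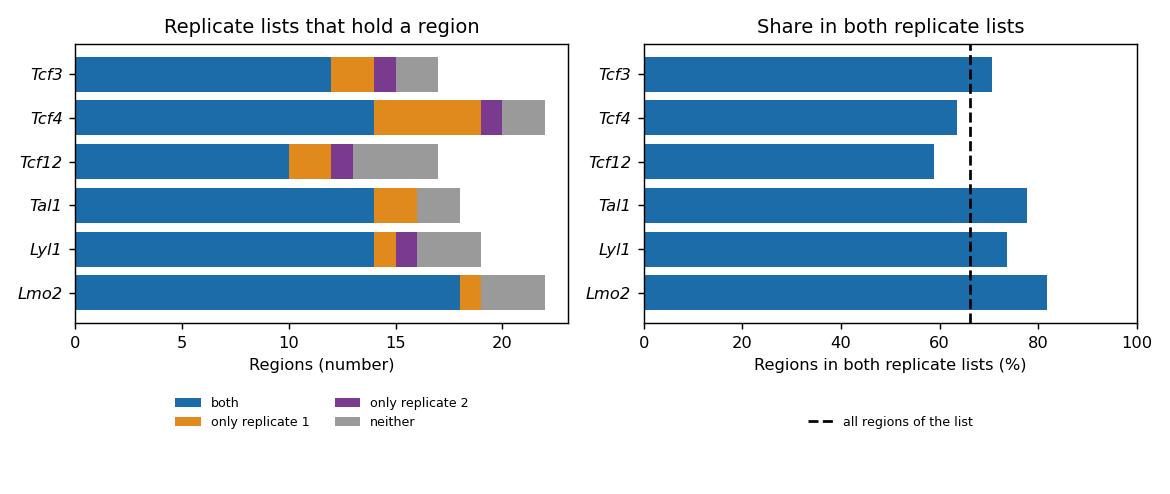
Left, number of regions at each locus by the replicate lists that hold them. Right, the share of each locus's regions that both replicate lists hold (x axis, %), with a dashed line for all regions of the series-level list (66.1%). Shares run from 58.8% at Tcf12 to 81.8% at Lmo2, on both sides of the line, and include regions nearer to other genes.

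Folds were higher in replicate 1 for 76 of the 82 members in both lists (92.7%), as for 92.1% of all regions in both. The median ratio of replicate 1 to replicate 2 was 1.22 at the members and 1.20 over all regions. The lists themselves have different medians, 9.08 in replicate 1 and 7.74 in replicate 2.

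**Figure D4:**
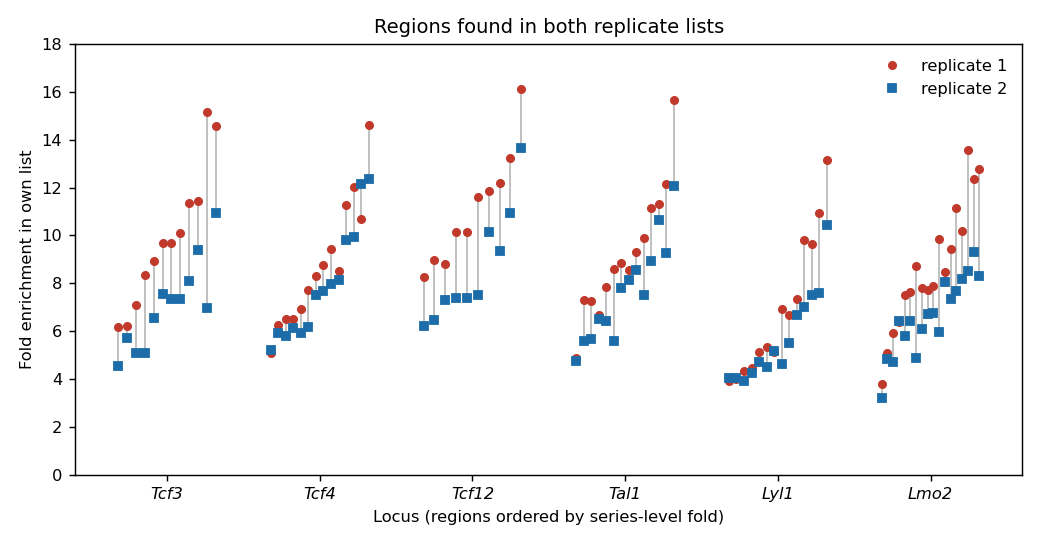
Fold (y axis) of each of the 82 members in both replicate lists, in replicate 1 (circles) and replicate 2 (squares), joined by a line, grouped by locus (x axis) and ordered by series-level fold. Circles lie above squares in 76 of the 82, with the widest gap at Tcf3 (15.2 against 6.97).

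Per length, the windows of Lmo2, Lyl1 and Tal1 were the densest, counting regions nearer to other genes too. Lmo2 had 12.0 regions per 100 kb of window, Lyl1 11.6, Tal1 10.3 and Tcf3 9.23, while Tcf4 had 4.35 and Tcf12 3.96. The median over protein-coding genes was 5.35. Densities were lower than that of Lmo2 at 92.7% of genes and lower than that of Tcf12 at 37.8%. Open DNA covered 6.90% of the window at Tal1, 6.62% at Lyl1, 5.70% at Lmo2, 5.36% at Tcf3, 2.38% at Tcf4 and 2.12% at Tcf12. The windows also differ in the number of other genes they hold, from 0 at Tcf4 to 7 at Tcf3. Regions nearest to the member itself were 18 of 22 at Lmo2, 4 of 19 at Lyl1 and 7 of 18 at Tal1. They were 2 of 17 at Tcf3, 22 of 22 at Tcf4 and 12 of 17 at Tcf12. The order above holds for windows and not for the genes. By these regions alone Lyl1, with 4 in a window of 163 kb, was sparser than Tcf4, with 22 in 506 kb.

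By annotation, 24.3% of members lay at a promoter of a protein-coding gene (20.7% of all regions), 10.4% in exons (6.00%), 34.8% in introns (40.8%) and 30.4% between genes (32.5%). Introns held most regions at Tcf4 (16 of 22), and intergenic DNA held 11 of 22 at Lmo2. The median width was 482 bp, against 473 bp over all regions.

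Short consensus sequences were counted within 150 bp of each summit, on both strands. An E-box (CANNTG) stood at 84 of 115 members (73.0%, against 77.9% of all regions). The variant CAGCTG stood at 24 (20.9%, against 18.9%), and CAGGTG, which also reads CACCTG, at 15 (13.0%, against 17.2%). GATAA stood at 29 (25.2%, against 25.7%). The 4-letter core GATA stood at 75 (65.2%, against 60.5%), and GGAA at 109 (94.8%, against 97.7%). Each longer consensus overlaps its core. The median GC content of these windows was 52.5%, against 49.8% over all regions.

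Complexes of E proteins, Tal1 and GATA factors are known to bind a TG followed after 9 bases by GATAA. This pair stood at 5 members (4.35%, against 2.42%), with 2 at Tcf12 and 1 each at Tcf3, Tcf4 and Tal1. The match at Tal1 was at the erythroid enhancer position, nearer to Pdzk1ip1. That at Tcf3 was the region at 93.4 kb, nearest to Adamtsl5 and only in replicate 1. At Tcf12, 1 of the 2 was the region at 305.3 kb, nearest to Cgnl1 and in neither replicate's list. Within 100 bp of the summit the pair stood at 2 members (1.74%, against 1.47%). Of the consensus sequences of other blood factors, GGAAG (ETS factors) stood at 75.7% of members (80.4% of all regions), TGTGGT (RUNX) at 20.9% (29.4%), TTGCNNAA (CEBP) at 21.7% (18.7%), TGANTCA (AP-1) at 11.3% (11.9%), GAGGAAGT (PU.1) at 8.70% (10.9%) and CTCF's, read as CC, any 3 bases, AG, any 2 bases and GGC, at 18.3% (16.1%). PU.1 matches were at Tcf4, Tal1 and Lmo2 (3 each) and at Tcf12 (1). Lyl1 had no GATAA match within 150 bp of any of its 19 summits, while the core GATA stood at 9 of them. Of these 19 regions, 15 were nearer to another gene.

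**Figure D5:**
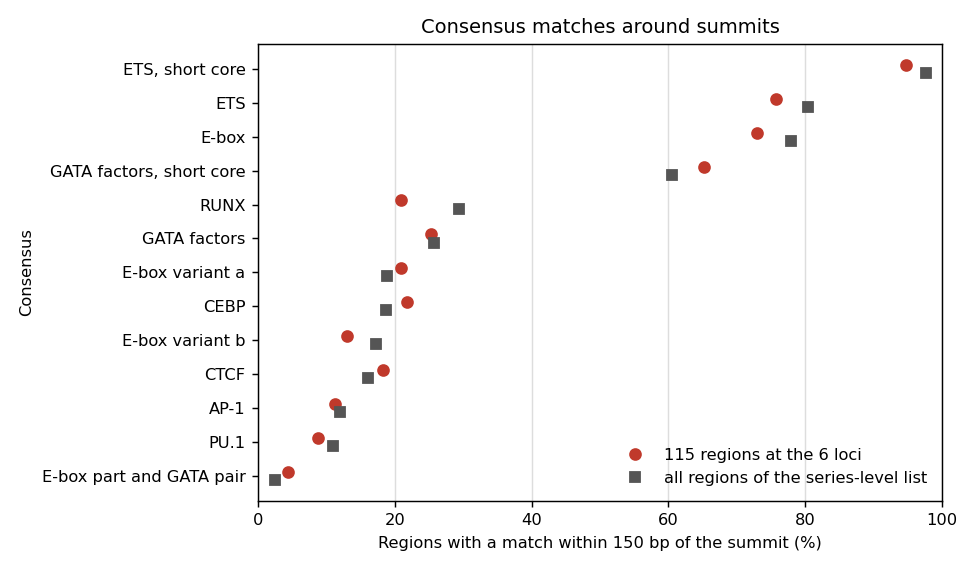
Share of regions with a match within 150 bp of the summit (x axis, %) for each consensus (y axis), with circles for the 115 members and squares for all 75148 regions; E-box variants a and b are CAGCTG and CAGGTG, and the short cores are GATA and GGAA. E-boxes stood at 73.0% of members and 77.9% of all regions, and the largest gap was that of RUNX (20.9% against 29.4%).

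Of 22 partner and inhibitor genes of these factors, 20 had an open promoter in the series-level list, against 61.4% of protein-coding genes. Replicate 1 held an open promoter at 18 and replicate 2 at 15, while 56.1% of protein-coding genes had one in both replicates. The share of all genes in a single replicate is not given. These 22 genes were chosen with earlier results of these data known. Ldb1, the adaptor that Lmo2 binds, had a fold of 10.9 (13.0 in replicate 1 and 8.08 in replicate 2). Its stabilising partners Ssbp2, Ssbp3 and Ssbp4 had 10.4, 5.76 and 4.90. The related genes Lmo1 and Lmo4 had 8.43 and 5.26, while Lmo3 and Ldb2 had no promoter region.

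Among corepressor genes the promoter folds were 15.0 at Cbfa2t2, 14.7 at Kdm1a (a histone demethylase), 14.1 at Hdac1 and 9.18 at Hdac2 (histone deacetylases), and 5.75 at Cbfa2t3. Of the inhibitors, Id4 had 10.9 (11.1 in replicate 1 and no promoter region in replicate 2), Id2 8.30, Id3 7.23 and Id1 5.08, all but Id4 in both replicates. GATA partners differed, with 9.99 at Gata1 in both replicates, 4.01 at Gata2 in replicate 1 only (4.98) and 5.16 at Gata3 in neither replicate's list. Runx1t1 had 7.77 and was open in replicate 1 only (8.65), and Tal2, a relative of Tal1, had 3.72 and was in neither. Id2 and Lmo4 had 45 and 46 distal regions nearest to them, against 22 at Ssbp2 and a median of 3 over the 22 genes. At Id2 and Lmo4 these counts take in regions farther than 80 kb from the gene, and no value over all genes is given. Within the gene body and 80 kb on either side, Id2 had 12 regions, Lmo4 12 and Ssbp2 28.

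The limit of 80 kb passed close to some regions. The member nearest to it on the inner side was the Reep6 promoter region at Tcf3, 437 bp inside with a fold of 13.2. The nearest on the outer side lay 2988 bp beyond the limit at Tal1, with a fold of 6.51. At Lmo2 the regions nearest beyond the limit, 5821 bp upstream of it and 7916 bp downstream of it, had folds of 12.2 and 14.5, both above the highest fold inside that window.

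Genes outside these windows with the most similar values were sought by the distance over 4 standardised values, namely the number of regions in the window, their share in both replicates and the promoter fold in each replicate. The nearest were Slc25a25 (distance 0.048) to Tcf3, Usp18 (0.077) to Tcf4, Ppp6r3 (0.063) to Tcf12, Btnl10 (0.070) to Tal1, Rap1a (0.043) to Lyl1 and Zfp575 (0.011) to Lmo2. Second nearest were Pogz to Tcf3, Farsa to Tcf4, Wdr5 to Tcf12, Ramp1 to Tal1, H2-Ke6 to Lyl1 and Ethe1 to Lmo2. The 4 values come from 2 replicates of 1 cell type.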

How the data were processed

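ATAC-seq of GMP was represented by lists of regions, on mm10 per the submitters' file list. Each row carries a fold enrichment, a ratio computed by the authors and used as deposited, and a summit position. Aligner, peak caller, their versions and a Tn5 shift were not given in the sources used here. Per the same file list, rows of the series-level conservative list derive from the alignments of both replicates, and those of each replicate's own IDR-thresholded list (IDR, the irreproducible discovery rate) from that replicate.

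From these files, rows of a list that shared 1 bp or more were merged, with the summit and fold of the row of highest fold (Python 3.11.15, pandas 2.3.3). Regions were annotated with GENCODE vM21, and sequences were read from the RefSeq FASTA of GRCm38.p6, whose chromosomes are those of mm10. Only TSSs of coding transcripts on the 19 autosomes and X were used. Distances run from the 5′ end of the gene. A member was found in a replicate when it overlapped a region of that list by at least 1 bp. Merging, overlap and motif search were tested on simulated data.

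With 1 group and no second condition, no test between groups was possible, and values are descriptions set beside the same values over all regions or genes. The 6 members, the partner and marker lists, the element positions and the consensus sequences were chosen with earlier results of these data known. Regions named are those at promoters, the 3 of highest fold per gene, those at named element positions and those missing from a replicate's list, and other regions and some neighbouring genes were named after their values were seen. Alternatives were other lists, windows, overlaps and promoter widths.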

Additional observations from a re-analysis of the deposited data

How the results depend on the processing

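The number of members was 115 in the main list and 186 in the authors' looser series-level list, 47 among regions at or above the median fold of the list, and 65 when only regions with the member's TSS nearest were kept. It stayed within 1.5 times of 115 in the series-level optimal list and with windows of 40 and 120 kb, and lay between 89 and 99 in the lists of single replicates. The share of members in both replicate lists, 71.3%, was 44.1% in the looser series-level list (39.8% of all its regions), 91.5% among regions at or above the median fold (90.2% of all such regions) and 97.4% with looser replicate lists (97.1% of all regions). The other 6 alternatives for this share gave between 68.9% (window of 120 kb) and 74.1% (window of 40 kb), on largely the same regions. The 6 genes had an open promoter under each alternative run except among regions at or above the median fold, where 4 did. Of the 22 partner genes 10 did so there, against 20, and without replicate 1 or 2 it was 15 to 18. Shares of all protein-coding genes are not given for these alternatives. Within 100 bp of the summit E-boxes fell to 61.7% of members, CAGGTG to 6.96%, GATAA to 14.8%, GATA to 42.6% and GGAA to 88.7% (all regions 64.6%, 11.1%, 15.9%, 44.0% and 93.6%), and the pair of TG and GATAA to 1.74% (2 members against 5, with 1.47% of all regions), as a shorter window holds fewer matches. No paired analysis was possible because the series has 1 group. Read depth is unknown, so weak regions could not be judged by it.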
